A study of Mus musculus with 2 samples.

Results

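The 5 chemokine receptor genes Cxcr6, Ccr10, Ccr8, Ccr6 and Ccr4 were examined in single T cells of adult mouse back skin and lung. They were taken as a fixed list of 5 among the 27514 genes that both tables hold. Cells were kept when they carried at least 1 unique molecular identifier (UMI, the tag that marks 1 captured RNA molecule) of Cd3d, Cd3e or Cd3g, the invariant chains of the T cell receptor. This gave 6011 of 6601 skin barcodes and 7840 of 8730 lung barcodes. The skin cells came from Foxp3-CreERT2GFP C57Bl/6 mice and the lung cells from Foxp3-GFP C57Bl/6 (Tachilla strain) mice. Both tissues were digested with collagenase and sorted as positive for GFP, CD4, CD3 and CD45, where GFP reports Foxp3, the transcription factor of regulatory T cells (Tregs). There was 1 library per tissue, the number of mice pooled is not given in the sources used here, and tissue, reporter allele and library cannot be told apart. Intervals are exact 95% intervals and cover counting error only.

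Chemokine receptors are seven-helix membrane proteins that signal through inhibitory G proteins and steer leukocytes along gradients of secreted chemokines. CXCR6 binds CXCL16, CCR10 binds CCL27 and CCL28, CCR8 binds CCL1 and, in the mouse, CCL8, CCR6 binds CCL20, and CCR4 binds CCL17 and CCL22. CCR4, CCR8 and CCR10 are known from T cells that home to skin, CCL27 is made by keratinocytes, and CXCR6 is known from T cells that stay in tissues.

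Skin cells with a CD3 UMI had a median of 2047 UMIs and lung cells 2351. The labelled cell type was only partly visible in the transcripts: of the CD3+ cells, 5.44% in skin and 3.49% in lung had a Foxp3 UMI, and 30.8% and 23.7% a Cd4 UMI. The libraries shared 82 barcodes. Leaving these out kept 4 of the 5 receptors at least 4-fold apart, and the lung cells with shared barcodes carried 4 of the 380 Ccr4 UMIs and none of the other 4 receptors. In skin, 74 barcodes held UMIs of at least 5 of 6 fibroblast genes, and 65 of them also had a CD3 UMI and so lie within the CD3+ cells. Those 74 barcodes, chosen after their values were seen, served as a measure of receptor UMIs in barcodes of another cell type.

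Cxcr6, Ccr8 and Ccr4 lie on chromosome 9 (GRCm38, GENCODE M21), Cxcr6 at 123806475 to 123811760 and Ccr8 at 120092114 to 120094906 on the plus strand, and Ccr4 at 114490316 to 114504916 on the minus strand. Ccr10 lies on chromosome 11 at 101172997 to 101175443 (minus strand) and Ccr6 on chromosome 17 at 8236043 to 8257141 (plus strand). The 250 bases before a transcription start of 4 of the genes are shown because these genes differed together between the tissues. They are RefSeq promoter windows of GRCm38.p6, 5′ to 3′ on the gene's strand, and Ccr10 has no entry in the table used. Capitals mark matches, on either strand, to TGANTCA (bound by AP-1 factors), AGATAA (bound by GATA factors) or AGGTCA (a half-site of nuclear receptors such as ROR proteins).
Cxcr6, chr9:123806227-123806476, plus strand: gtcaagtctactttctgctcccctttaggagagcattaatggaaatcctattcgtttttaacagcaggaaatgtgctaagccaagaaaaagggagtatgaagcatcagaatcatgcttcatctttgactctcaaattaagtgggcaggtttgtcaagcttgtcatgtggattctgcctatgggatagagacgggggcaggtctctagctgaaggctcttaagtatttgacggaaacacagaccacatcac
Ccr8, chr9:120091883-120092132, plus strand: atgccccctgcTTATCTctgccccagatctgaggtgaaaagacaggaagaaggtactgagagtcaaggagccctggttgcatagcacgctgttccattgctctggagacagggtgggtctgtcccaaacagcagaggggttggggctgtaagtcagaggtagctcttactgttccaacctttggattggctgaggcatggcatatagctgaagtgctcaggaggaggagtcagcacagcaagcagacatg
Ccr6, chr17:8235793-8236042, plus strand: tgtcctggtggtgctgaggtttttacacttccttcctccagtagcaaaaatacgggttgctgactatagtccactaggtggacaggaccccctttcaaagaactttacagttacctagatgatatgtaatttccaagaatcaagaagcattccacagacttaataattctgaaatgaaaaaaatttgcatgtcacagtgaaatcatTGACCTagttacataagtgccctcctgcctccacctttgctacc
Ccr4, chr9:114496545-114496794, minus strand: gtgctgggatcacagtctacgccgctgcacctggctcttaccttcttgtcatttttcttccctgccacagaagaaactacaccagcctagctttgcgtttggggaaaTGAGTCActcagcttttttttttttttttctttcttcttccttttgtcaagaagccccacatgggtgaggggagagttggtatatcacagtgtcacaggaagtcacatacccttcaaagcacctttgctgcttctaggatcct
Ccr4 held 1 TGANTCA match, Ccr8 1 AGATAA match and the Ccr6 window shown 1 AGGTCA match, while the Cxcr6 window held no match to any of the 3. No matches overlapped. Among 32851 promoter windows of the same length, 6.75% held TGANTCA, 9.99% AGATAA and 14.0% AGGTCA. A second Ccr6 window, chr17:8242276-8242525 (not shown), held 1 AGATAA match, as the Ccr8 window did.

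All 5 receptors were higher in skin than in lung, and Cxcr6 was the most abundant. Levels are summed UMIs scaled to the library total (CPM), and 3′ UMI counts do not scale with transcript length. The Cxcr6 level was 671 CPM (657 to 684; 9714 UMIs) in skin against 3.49 CPM (2.75 to 4.38; 75 UMIs) in lung, a ratio of 192 (153 to 244). Ccr10 reached 135 CPM (129 to 141) in skin against 0.931 CPM (0.569 to 1.44) in lung, a ratio of 145 (93.5 to 238). The lung Ccr10 level rests on 20 UMIs in 7 cells, and 1 of those cells holds 12 of them.

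Ccr8 reached 95.1 CPM (90.2 to 100.3) in skin against 5.21 CPM (4.29 to 6.27) in lung, a ratio of 18.2 (15.0 to 22.3). Ccr6 gave 94.3 CPM (89.4 to 99.4) against 4.75 CPM (3.87 to 5.76), a ratio of 19.9 (16.2 to 24.5). Ccr4 differed least, with 51.8 CPM (48.1 to 55.6) in skin against 17.7 CPM (16.0 to 19.6) in lung, a ratio of 2.93 (2.58 to 3.32). The skin order was therefore Cxcr6, Ccr10, then Ccr8 and Ccr6 with overlapping intervals, then Ccr4. In lung the order was nearly turned round, with Ccr4 first, Ccr8, Ccr6 and Cxcr6 next and Ccr10 last. In lung the intervals of Ccr8, Ccr6 and Cxcr6 all overlap.

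On the scale of log2(CPM + 5), the skin minus lung differences were 6.31 for Cxcr6, 4.56 for Ccr10, 3.35 for Ccr6, 3.29 for Ccr8 and 1.32 for Ccr4. Thus 4 of 5 receptors passed the 4-fold line on the skin side, which 4.13% of all 5686 genes tested did (those reaching 20 CPM in skin or lung). At 2-fold, 5 of 5 receptors were higher in skin, against 15.2% of all genes tested. With 20 CPM added in place of 5, the Ccr4 difference was 0.93, under the 2-fold line, which left 4 of 5. The median difference of all genes tested was 0.37. Among cells with a Foxp3 UMI (327 skin and 274 lung), the differences were 5.19, 4.99, 4.04, 3.76 and 1.22 in the same order. The intervals were 4.42 to 6.10 for Cxcr6, 1.83 to 9.29 for Ccr6, 2.46 to 5.62 for Ccr8 and 0.502 to 2.02 for Ccr4. For Ccr10 no finite interval could be given, and its value depends on the 5 CPM added.

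**Figure D1:**
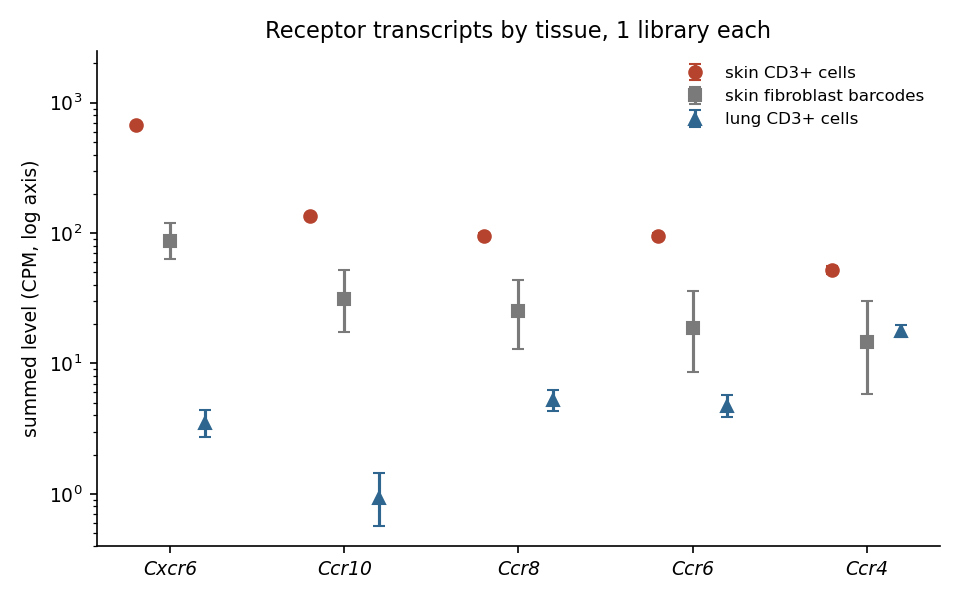
Summed level of each receptor (CPM, log axis) in skin CD3+ cells, skin fibroblast barcodes and lung CD3+ cells, 1 library per tissue, with exact 95% Poisson intervals. Skin CD3+ cells lie highest for all 5 genes, and for Ccr4 the lung level of 17.7 CPM lies within the interval of the skin fibroblast barcodes.

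Receptor UMIs were also found in the fibroblast barcodes of skin, and whether they came from free RNA or from a T cell in the same droplet was not tested. Cxcr6 stood at 87.6 CPM in them, 13.1% of its level in CD3+ cells. Ccr10 was at 31.3 CPM (23.2%), Ccr8 at 25.0 CPM (26.3%), Ccr6 at 18.8 CPM (19.9%) and Ccr4 at 14.6 CPM (28.2%). Among other T cell genes the same share was 14.5% for Cd3g, 15.6% for Ptprc, 16.5% for Cd4, 17.6% for Foxp3, 20.7% for Cd3d, 23.9% for Cd3e and 26.4% for Il2ra. The point value of Cxcr6 lies below and that of Ccr4 above that range, but counting error separates neither from it. In the fibroblast barcodes Cxcr6 rests on 42 UMIs (63.1 to 118 CPM) and Ccr4 on 7 UMIs (5.87 to 30.1 CPM). In lung, 11 such barcodes held 0 UMIs of each receptor.

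Of skin CD3+ cells, 57.3% (56.0 to 58.5) had a Cxcr6 UMI, and 39.7% (38.4 to 40.9) once every cell was thinned to 1000 UMIs. The share after thinning was 11.8% for Ccr10, 9.17% for Ccr8, 8.98% for Ccr6 and 4.53% for Ccr4. Before thinning these shares were 22.3%, 19.0%, 17.8% and 10.4%. In the fibroblast barcodes (median 6247.5 UMIs), thinned in the same way, the shares were 13.5% for Cxcr6, 4.05% for Ccr10, 2.70% for Ccr8, 1.35% for Ccr4 and 0 of 74 for Ccr6. All 5 receptors thus had a UMI in a larger share of CD3+ cells than of fibroblast barcodes at equal depth, but for Ccr4 the intervals overlap (4.01 to 5.08% and 0.0342 to 7.30%), and for Ccr8 they do as well (8.45 to 9.92% and 0.329 to 9.42%), and for Ccr10 (11.0 to 12.6% and 0.844 to 11.4%).

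In lung, thinned to the same depth, 1.21% of CD3+ cells (0.979 to 1.48) had a Ccr4 UMI, 0.554% a Ccr8 UMI and 0.489% a Ccr6 UMI. Cxcr6 was found in 0.206% and Ccr10 in 0.0386%, which is 3 of 7764 cells. Unthinned, the lung shares were 3.98% for Ccr4, 1.29% for Ccr8, 1.17% for Ccr6, 0.510% for Cxcr6 and 0.0893% for Ccr10. Of 152 lung cells of other types without a CD3 UMI (median 2193.5 UMIs), 1 had a Ccr4 UMI, 1 a Ccr8 UMI, 1 a Ccr6 UMI and none a Cxcr6 or Ccr10 UMI. For the last 2 genes this allows a share of up to 1.97% (3 of 152), which lies above their unthinned shares in lung CD3+ cells. Skin had only 18 such cells without a CD3 UMI (median 1741.5 UMIs), and receptor UMIs were more common in them. Of the 18, 6 had a Cxcr6 UMI, 2 a Ccr10, 2 a Ccr8, 1 a Ccr4 and 0 a Ccr6 UMI. Their summed levels were 143 CPM (52.4 to 311) for Cxcr6 and 47.6 CPM (5.76 to 172) for Ccr8.

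**Figure D2:**
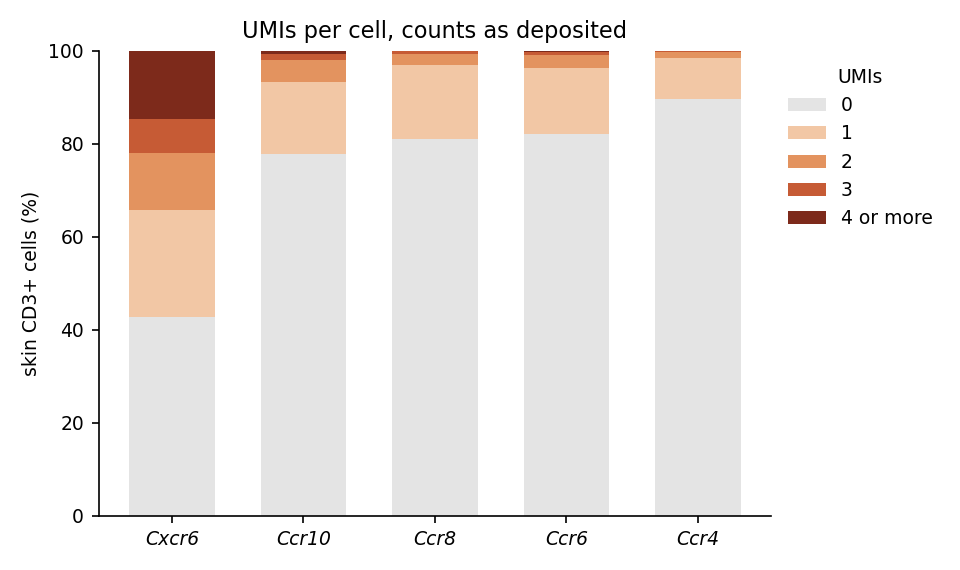
Share of the 6011 skin CD3+ cells (percent) with 0, 1, 2, 3 or at least 4 UMIs of each receptor in the counts as deposited. Cxcr6 is the only one of the 5 with most of its positive cells above 1 UMI (59.7%), while Ccr4 reaches 16.0%.

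Cxcr6 was also the receptor whose counts varied most between skin cells. Of the skin cells with a Cxcr6 UMI, 59.7% had more than 1, and 1 cell had 26. For Ccr10 30.0% of positive cells had more than 1 UMI, for Ccr6 21.1%, for Ccr8 16.5% and for Ccr4 16.0%. At 1000 UMIs per cell, the variance over the mean was 1.98 for Cxcr6, 1.23 for Ccr10, 1.21 for Ccr6, 1.09 for Ccr4 and 1.05 for Ccr8. Over all genes with a UMI in at least 2% of skin cells the median was 1.02 and the 95th percentile 1.21. Ccr8 thus lay near the median gene, and Cxcr6 and Ccr10 above the 95th percentile. Both this measure and the share of cells above 1 UMI can rise with the mean. That mean was 0.710 UMIs per cell for Cxcr6 and 0.138 for Ccr10, the next highest. Neither the receptors nor the other genes were matched for it, so spread at equal level was not compared.

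The receptors were found together in skin cells about as often as their single shares give. Of the 10 pairs, 0 were seen in at least 1.5 times the expected number of cells at 1000 UMIs. Over all genes with a UMI in at least 2% of cells, the share past that line was 0% with Cxcr6, 0.517% with Ccr10, 1.38% with Ccr8, 1.11% with Ccr6 and 4.23% with Ccr4. No pair fell below expectation by 1.5 times either, which 0.249%, 2.3%, 3.26%, 4.27% and 10.1% of all genes did with the same receptors. Cxcr6 and Ccr10 were seen together in 291 cells against 280.9 expected, a ratio of 1.04 (0.920 to 1.16), where the interval covers the joint count alone. Cxcr6 gave 1.03 with Ccr8, 0.999 with Ccr6 and 0.936 with Ccr4. Cells with a Cxcr6 UMI thus carried each of the other 4 receptors at nearly the rate of cells without one, for example Ccr10 in 12.2% against 11.5%.

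Pairs without Cxcr6 spread more widely. Ccr6 and Ccr4 were seen together in 36 cells against 24.4 expected, a ratio of 1.47 (1.03 to 2.04). The middle 90% of all genes paired with Ccr4 ran from 0.548 to 1.47, and that of all genes paired with Ccr6 from 0.686 to 1.33, which the pair lies past. Ccr10 and Ccr6 had 79 cells against 63.6, a ratio of 1.24 (0.983 to 1.55). The other pairs were Ccr8 with Ccr4 at 1.12, Ccr10 with Ccr4 at 1.03, Ccr8 with Ccr6 at 1.01 and Ccr10 with Ccr8 at 0.971. The pair of Ccr6 and Ccr4 passed 1.5 when no barcode was removed by doublet score, and when cells with 3 UMIs of a non-T marker list were left out.

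**Figure D3:**
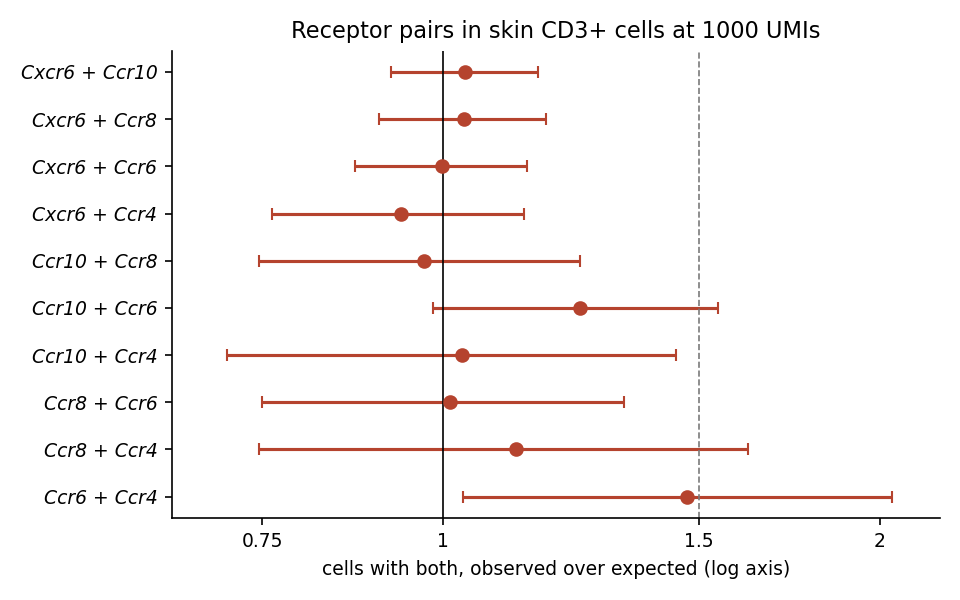
Skin CD3+ cells with UMIs of both receptors of a pair, observed over expected from the single shares (log axis), at 1000 UMIs per cell, with exact 95% Poisson intervals of the joint count. The solid line marks 1 and the dashed line 1.5, and no point lies past the dashed line, with Ccr6 and Ccr4 nearest to it at 1.47.

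Counted over all 5 genes, 42.4% of skin cells had a UMI of none, 43.2% of 1, 12.5% of 2 and 1.85% of 3 receptors at this depth. Independent receptors with the same single shares would give 42.0%, 43.6%, 12.7% and 1.58%. The largest combination was Cxcr6 alone, in 27.7% of cells, followed by Ccr10 alone (5.37%) and Ccr8 alone (4.19%). In lung 97.6% of cells had none, and 5 cells had 2 receptors. No lung pair reached an expected count of 5 cells, so no lung ratio is given. The part in the pair values of what gave receptor UMIs in fibroblast barcodes was not tested.

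Cells with a Cxcr6 UMI were higher in Il13, Calca, Gzmb and Il10 and lower in Ccr7 and Izumo1r. Summed at 1000 UMIs per cell, 7 of 2935 genes (0.239%) were at least 1.5-fold higher and 28 (0.954%) at least 1.5-fold lower in the 2385 skin cells with Cxcr6 than in the 3626 without, on log2(CPM + 20). Il13, a type 2 cytokine, stood at 287 CPM with and 143 CPM without Cxcr6, a ratio of 2.02 (1.79 to 2.26). Calca, which encodes the neuropeptide CGRP, gave 572 and 328 CPM. The cytotoxic protease gene Gzmb gave 251 and 141 CPM, and Il10, the gene of an inhibitory cytokine, 441 and 263 CPM. Ltb4r1, the leukotriene B4 receptor, Fgl2, a secreted suppressive protein of Tregs, and Neb, the gene of the muscle protein nebulin, were 1.73-fold, 1.65-fold and 1.87-fold higher. The genes most like Cxcr6 across cells were S100a6, Il10, Ly6a, Calca and S100a11, with phi coefficients over 6011 cells of 0.127 down to 0.100, which are weak.

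Ccr7, the receptor that leads T cells to lymph nodes, was at 39.5 CPM in skin cells with Cxcr6 and 139 CPM in those without, a ratio of 0.285 (0.226 to 0.355). Izumo1r, which encodes folate receptor 4, was at 71.8 against 194 CPM. The other genes at the low end of Cxcr6 included Dcn, Col1a1, Col1a2 and Col3a1 of fibroblasts. The fibroblast list summed to 508.6 CPM over cells with Cxcr6 and 1338 CPM over cells without, and 90.2% of the Dcn UMIs in CD3+ cells came from the 65 fibroblast barcodes. With those barcodes left out, Ccr7 stayed at 39.6 against 140 CPM and Izumo1r at 72.1 against 197 CPM, and Il13, Calca, Gzmb and Il10 remained the 4 highest genes on log2(CPM + 20). The low end then also held Retnla, at 20.2 against 96.1 CPM, Lyz2 of myeloid cells, at 17.3 against 67 CPM, and the MHC class II gene H2-Ab1, at 33.3 against 95.3 CPM. Ccl21a, a chemokine of lymphatic vessels, was lowest of all, at 12.6 against 103 CPM. However, 85.7% of all Ccl21a UMIs of skin CD3+ cells were in 5 cells and 35.7% in 1 cell. Over all CD3+ cells at equal depth, 1.26% of those with Cxcr6 and 1.32% of those without had a Ccl21a UMI. For Retnla, Lyz2 and H2-Ab1, 63.2%, 53.7% and 46.4% of the UMIs in CD3+ cells were in 5 cells. The myeloid list summed to 420.1 CPM with and 599.3 CPM without Cxcr6 over all CD3+ cells, and the part of other cell types in the low genes was not tested.

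Ccr10-positive cells (708) shared the low Ccr7 and Izumo1r but had no comparable high group. Ccr7 was at 31.1 CPM with and 108 CPM without Ccr10, a ratio of 0.287 (0.178 to 0.439), and Izumo1r at 53.7 against 158 CPM. Of 2998 genes tested, 1 (0.0334%) was at least 1.5-fold higher and 31 (1.03%) at least 1.5-fold lower. The highest ratio on the scale used was that of Flna, the gene of the actin cross-linker filamin A, at 223 against 140 CPM, a ratio of 1.59 (1.33 to 1.89). S100a6, Taldo1, Vim, Slc9a3r1 and Flna were the genes most like Ccr10 across cells, with phi from 0.076 to 0.054. The lowest gene on the scale used was Apoe, at 103 against 348 CPM, and 73.9% of its UMIs in CD3+ cells came from the fibroblast barcodes. The fibroblast list summed to 487.3 CPM with and 1079 CPM without Ccr10, and Col1a2 was also among the 10 lowest. Other low genes were H2-Aa, H2-Ab1 and H2-Eb1, which encode MHC class II chains of antigen-presenting cells, and Lyz2 of myeloid cells. In CD3+ cells, 46.6% of the H2-Aa UMIs and 53.7% of those of Lyz2 came from 5 cells, and the myeloid list summed to 293.8 CPM with Ccr10 and 559.5 CPM without. The part of these cells in the low genes of Ccr10 was not tested.

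Among Ccr8-positive cells (551), 4 of 3039 genes (0.132%) were higher and 16 (0.526%) lower. Of the 10 lowest genes, 6 were fibroblast genes (Col1a2, Sparc, Col1a1, Dcn, Col3a1 and Lum), and the fibroblast list summed to 392 CPM with and 1071 CPM without Ccr8. Leaving out the fibroblast barcodes gave 4 higher and 8 lower genes. Ccl1, a ligand of CCR8 itself, had the highest ratio, at 67.2 CPM with and 10.8 CPM without Ccr8, but 69.7% of all Ccl1 UMIs of skin CD3+ cells were in 5 cells and 32.3% in 1 cell. Its phi with Ccr8 was only 0.009, so that a Ccl1 UMI was hardly more common in cells with Ccr8. Cux1, a homeobox factor, gave 63.6 against 32.2 CPM and Pglyrp1, a peptidoglycan recognition protein, 74.5 against 40.1 CPM. Cux1, Ppa2, Tnfrsf4, Prkch and Itgb8 were the genes most like Ccr8. Tnfrsf4, the costimulatory receptor OX40 of activated T cells and Tregs, stood at 2091 against 1673 CPM, and Itgb8, the integrin chain that activates TGF-beta, at 105 against 70.3 CPM. Ccr7 did not differ in the way it did for Cxcr6 and Ccr10: 7.44% of cells with Ccr8 and 6.08% of those without had a Ccr7 UMI.

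Ccr6-positive cells (540) had 9 of 3052 genes (0.295%) higher and 29 (0.950%) lower. Cxcl10, an interferon-induced chemokine, gave 89.0 CPM with and 42.6 CPM without Ccr6, a ratio of 2.09 (1.5 to 2.86). It rests on 48 UMIs in cells with Ccr6. A Cxcl10 UMI was in 4.81% (3.17 to 6.98) of cells with Ccr6 and 2.98% (2.54 to 3.46) without, and these intervals overlap. Gzmb gave 280 against 175 CPM, a ratio of 1.60 (1.34 to 1.90). The share of cells with a Gzmb UMI differed less, at 9.81% (7.44 to 12.6) with Ccr6 and 8.23% (7.51 to 8.98) without, with a phi of 0.016. Nrp1, a semaphorin co-receptor of thymus-derived Tregs, was the 1 gene of the 9 tested Treg identity genes at least 1.5-fold lower with Ccr6, and none was higher. S100a10, Ebpl, Tex30, Sdc4 and Pxdc1 were the genes most like Ccr6, with phi of 0.054 to 0.048. The fibroblast list was at 242.6 CPM with and 1085 CPM without Ccr6, and without the fibroblast barcodes H2-Aa and Cxcl2 led the low end, at 13 against 58.5 CPM and 40.8 against 122 CPM. Over all CD3+ cells, 3.33% (1.99 to 5.22) of those with Ccr6 and 4.20% (3.69 to 4.77) of those without had a Cxcl2 UMI.

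Among Ccr4-positive cells (272), of 3091 genes tested, 57 (1.84%) were higher and 88 (2.85%) lower, but this is also the smallest group of cells, with the widest counting error. S1pr1, which guides T cells out of tissue towards lymph and blood, stood at 73.6 CPM with and 24.9 CPM without Ccr4, a ratio of 2.95 (1.75 to 4.73). Cd40lg, the costimulatory ligand of helper T cells, gave 236 against 110 CPM, and Ms4a4b, a membrane protein of T cells, 681 against 380 CPM. Tmem176b and Tmem176a, a neighbouring gene pair of cation channels, gave 73.6 against 26.5 CPM and 51.5 against 20.6 CPM. Calca was lower with Ccr4, at 195 against 436 CPM, a ratio of 0.448 (0.334 to 0.588), and so was Ccr7, at 33.1 against 102 CPM. In summed level Calca was thus on the high side for Cxcr6 and the low side for Ccr4. The share of cells with a Calca UMI differed less for Ccr4, at 14.3% (10.4 to 19.1) with it and 19.5% (18.5 to 20.6) without. Those intervals overlap, and the phi was −0.027. Of the 10 lowest genes, 5 were fibroblast genes (Col1a2, Dcn, Lum, Col1a1 and Col3a1), and the fibroblast list summed to 367.6 CPM with and 1040 CPM without Ccr4.

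State genes were also set against the receptors as shares of cells at equal depth. The cells and thinned counts were those used for the levels above, so the shares are not separate evidence. Among the 373 skin cells with a Ccr7 UMI, 22.0% (17.9 to 26.5) had Cxcr6, against 40.8% of the others. Ccr10 was in 4.83% against 12.2% and Ccr4 in 1.88% against 4.70%. Ccr8 was in 11.0% (8.0 to 14.6) against 9.05% and Ccr6 in 9.92% against 8.92%, so the shares of these 2 receptors were not lower in cells with Ccr7. Among cells with an Il13 UMI (691), Cxcr6 was found in 52.2% against 38.0%, and Ccr4 in 2.60% against 4.77%. Il10 cells (1118) had Cxcr6 in 50.4% against 37.2% and Ccr6 in 7.51% against 9.32%. The 1075 cells with Klrg1, a receptor of effector cells, had Cxcr6 in 47.7% against 37.9%.

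Among cells with a Foxp3 UMI, Ccr10 and Ccr8 were found in larger shares than among the others. Of the 164 cells with a Foxp3 UMI, 19.5% (13.7 to 26.4) had Ccr10, against 11.6% of the others, and 15.2% (10.1 to 21.7) had Ccr8, against 9.0%. Cxcr6 was in 37.2% of them against 39.7%, Ccr6 in 7.93% against 9.01% and Ccr4 in 3.66% against 4.55%. The Treg identity list as a whole did not follow this. Of its 9 tested genes, 0 were at least 1.5-fold higher with Ccr10 and 0 with Ccr8. Their median log2 difference was −0.015 with Ccr10 and 0.13 with Ccr8, beside 0.16 with Cxcr6 and 0.14 with Ccr6. Of the 153 cells with S1pr1, 11.8% (7.12 to 18.0) had Ccr4 against 4.34%, and 27.5% had Cxcr6 against 40.0%. Itgae, the integrin chain that holds T cells in epithelia, went with Cxcr6 (45.4% against 37.6%) and Ccr10 (13.9% against 11.0%). Areg, the gene of the repair factor amphiregulin, and Gata3, the type 2 transcription factor, were seen with each of the 5 receptors in 0.94 to 1.09 times the expected number of cells. Differences between receptors in these shares were not tested, since the cells come from 1 library.

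**Figure D4:**
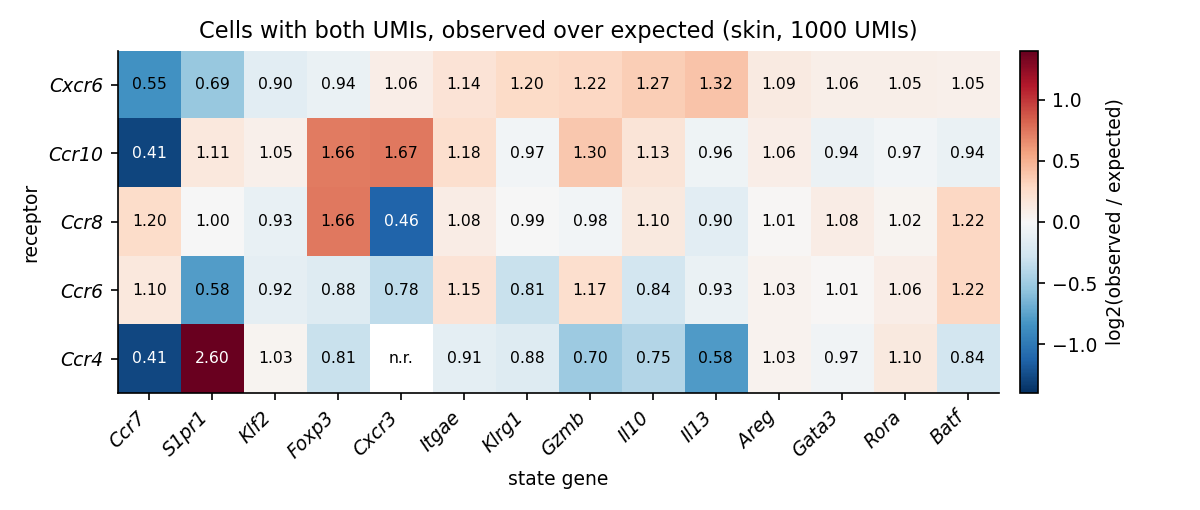
Skin CD3+ cells with UMIs of both a receptor (rows) and a state gene (columns) at 1000 UMIs per cell, observed over expected (numbers) and its log2 (colour); n.r. marks an expected count under 5. Ccr7 is low with Cxcr6 (0.55), Ccr10 (0.41) and Ccr4 (0.41), and S1pr1 is highest with Ccr4 (2.60).

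Lung cells were too few for gene lists, so the state genes, with 8 genes added after their values were seen, were compared at 2000 UMIs in 5368 lung cells. The 156 lung cells with Ccr4 were higher in S100a4, Ccr2 and Icos and lower in Ccr7. S100a4, a calcium-binding protein of memory T cells, was in 60.3% (52.1 to 68.0) against 13.5% of cells without Ccr4. Ccr2, the receptor of inflammatory chemokines, was in 40.4% (32.6 to 48.5) against 4.83%. Icos, a costimulatory receptor, was in 62.8% against 29.4%, Rora in 25.6% against 9.75% and Batf in 24.4% against 8.84%. Ccr7 was in 25.0% (18.4 to 32.6) against 53.1%. Before thinning, lung cells with Ccr4 had a median of 3419.5 UMIs and those without 2733, a gap that thinning evens out in number of UMIs only.

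The 62 lung cells with Ccr6 had a like pattern, with S100a4 in 58.1% against 14.4%, Ccr2 in 33.9% against 5.54%, Rora in 32.3% against 9.95% and Ccr7 in 32.3% (20.9 to 45.3) against 52.5%. The 53 lung cells with Ccr8 had Ccr7 in 52.8% against 52.3% and Ccr2 in 1.89% against 5.91%. They were higher in Tnfrsf4, in 81.1% (68.0 to 90.6) against 46.0%, Gata3, in 35.8% against 20.2%, and Areg, in 17.0% (8.07 to 29.8) against 4.89%. Icos was in 47.2% (33.3 to 61.4) of them against 30.2%, and Klrg1 in 11.3% (4.27 to 23.0) against 2.58%. S100a4 was in 20.8% (10.8 to 34.1) against 14.8%, and at 1000 UMIs in 23.3% (11.8 to 38.6) against 9.65%. Only 19 lung cells had Cxcr6 and 4 had Ccr10 at this depth. Of the 19, 2 had Ccr7 (9.9 expected) and 6 had Klrg1 (0.506 expected).

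Ccr4 was set against the same genes in both tissues at 1000 UMIs. In lung, S100a4 was in 55.3% of cells with Ccr4 and 9.17% of those without, 52 cells against 9.14 expected. In skin S100a4 is given as a summed level, 1417 CPM with and 1368 CPM without Ccr4. That is another measure, so it cannot be set directly against the lung shares. Ccr2 was in 24.5% against 3.27% of lung cells and in 19.9% against 17.6% of skin cells, and Icos in 51.1% against 17.7% in lung and 70.2% against 64.3% in skin. Ccr7 was low with Ccr4 in both, at 14.9% against 37.5% in lung and 2.57% against 6.38% in skin. S1pr1 was in 18.1% against 23.4% of lung cells and 6.62% against 2.35% of skin cells. The difference between the tissues has no replicate check and was not tested.

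**Figure D5:**
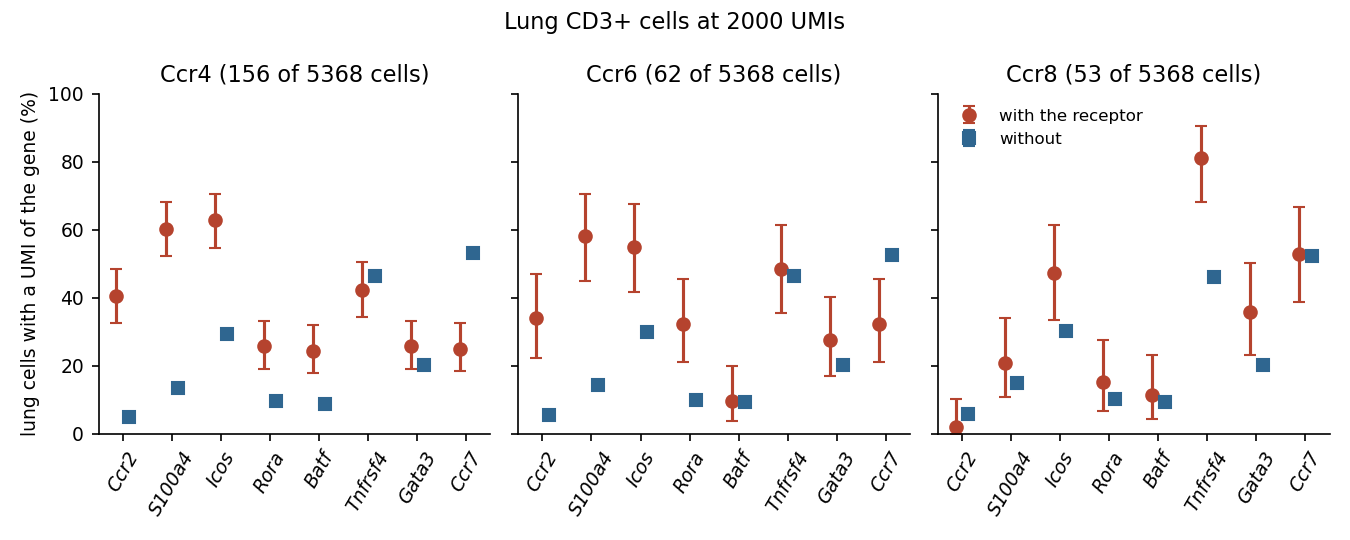
Share of lung CD3+ cells (percent, 2000 UMIs per cell) with a UMI of 8 genes, in cells with (circles) and without (squares) Ccr4, Ccr6 or Ccr8, with exact 95% binomial intervals. Ccr2 is in 40.4% of cells with Ccr4, 33.9% with Ccr6 and 1.89% with Ccr8, where Tnfrsf4 reaches 81.1%.

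Other chemokine receptors moved in both directions between the tissues. Of 18 listed, 7 were tested, of which 2 passed the 4-fold line on the skin side and 1 on the lung side, which 1.42% of all genes tested did. At 2-fold 4 were on the skin side and 2 on the lung side, against 4.96% of all genes tested on the lung side. Ccr1 stood at 24.0 CPM in skin and 0.279 CPM in lung, and Ccrl2, an atypical receptor that binds chemerin, at 99.1 against 16.4 CPM. Ccr7 stood at 113 CPM in skin and 604 CPM in lung. Ccr9, the gut-homing receptor, was below the level tested, with 0 UMIs in skin and 302 in lung.

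The shared signalling genes behind the receptors mostly lay within 2-fold, as did most genes. Of all 5686 genes tested, 4540 were within 2-fold, and 4.13% passed the 4-fold line on the skin side and 1.42% on the lung side. Of 24 signalling genes listed, 19 were tested, 0 were 4-fold apart and 17 were within 2-fold. Their median log2 difference was 0.31, beside 0.37 for all genes tested. The exceptions were Gng2, a G protein gamma subunit, at 148 against 36.4 CPM, and Rgs2, a brake on G protein signalling, at 1009 against 433 CPM. Of 14 adhesion and residency genes 13 were tested, with 4 past the 4-fold line on each side, against 4.13% of all genes tested on the skin side and 1.42% on the lung side. Gcnt1, which builds selectin ligands, stood at 119 against 0.279 CPM, and Itgae at 316 against 10.2 CPM. On the lung side, S1pr1 stood at 25.8 against 269 CPM. Fut7, another selectin ligand enzyme, was below the level tested at 16.4 against 0.931 CPM. Of 10 Treg identity genes, all tested, 7 passed the 2-fold line on the skin side, against 15.2% of all genes tested. On the lung side 0 did, and the list summed to 8086 CPM in skin and 2432 CPM in lung. Of 22 state genes 20 were tested, with 11 past the 4-fold line on the skin side and 4 on the lung side. A skin excess was thus not particular to the receptors.

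Ligand transcripts were scarce in the sorted cells. Of 8 ligands, 1 was tested, Ccl1, at 20.5 CPM in skin and 0.140 CPM (3 UMIs) in lung. Ccl8 stood at 16.7 CPM in skin CD3+ cells, and 6 skin cells of myeloid type without a CD3 UMI held 81 Ccl8 UMIs, all in 2 cells. Ccl27a stood at 11.3 against 4.84 CPM, Cxcl16 at 2.62 against 1.72 CPM and Ccl20 at 0.414 against 0.279 CPM. Ccl17 and Ccl22 had 1 and 3 UMIs in skin, and Ccl28 0 in both tissues. The sort kept CD3+ CD4+ cells, so these values do not describe other cells of the tissue.

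Early response genes, which rise when tissue is dissociated, were higher in skin as well: 9 of 11 passed the 2-fold line, against 15.2% of all genes tested, and the list summed to 18091 CPM in skin and 4827 CPM in lung. Within skin the list did not follow the receptors closely, at 19205 CPM in cells with Cxcr6 and 19601 CPM in cells without, and at 17908 against 19516 CPM for Ccr4. Its part in the differences between skin and lung was not tested.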

How the data were processed

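The values are UMI counts per gene and cell barcode, deposited by the authors as raw matrices without normalization, for skin and lung T cells made into libraries with 10x Single Cell 3' v2 chemistry, per the labels' protocols. Per the submitters' processing notes Cell Ranger and the mm10 build were used, and software version 3.0.2 stands in the lung matrix header. The skin library lists 27998 genes and the lung library lists 31053. The 27514 in both were compared. A second, shallower lung table of the same cells was not used. Barcodes with fewer than 200 genes or more than 10% mitochondrial UMIs were dropped. Scrublet, in scanpy 1.11.5, called 2 skin and 0 lung doublets, too few to have worked, and the 6% of cells with the highest scores were removed in its place (389 and 519).

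Summed UMIs of CD3+ cells (14484635 in skin, 21482938 in lung) were scaled to CPM. Cells were thinned to 1000 UMIs for shares, pairs and the genes of receptor-positive cells, which left out 0 skin and 76 lung cells. With 1 library per tissue there is no test. Called means at least 4-fold on log2(CPM + 5) among genes reaching 20 CPM between tissues, and at least 1.5-fold on log2(CPM + 20) among genes reaching 50 CPM in either group of cells. Genes named for a receptor are among the 10 highest, the 10 lowest and the 5 with the highest phi, leaving out haemoglobin, mitochondrial and ribosomal protein genes, antigen receptor segments and Gm or Rik models. List genes outside that rule were named after their values were seen. Gamma-delta T cell genes are not in both gene lists and were not measured. The receptors and lists were chosen with earlier results of these data known. Scripts were tested on simulated data.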

Additional observations from a re-analysis of the deposited data

How the results depend on the processing

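The count of 4 receptors at least 4-fold higher in skin was the same under all 13 alternatives, and no receptor changed direction. Ccr4 ranged from 0.93, with 20 CPM added and under 2-fold, to 1.5 (log2). Median-of-ratios scaling moved the median of all genes from 0.37 to 0.04 and the skin share of genes 4-fold apart from 74.4% to 60.9%, and leaving mitochondrial and ribosomal protein genes out of the totals to −0.03 and 56.9%. The count of pairs past 1.5 was 1 with no barcode removed by doublet score and 1 without cells with 3 UMIs of a non-T list, Ccr6 with Ccr4 in both, and 0 under the other alternatives. The genes higher in skin cells with a receptor, summed over the 5 receptors, were 78, and became 33 at 2000 UMIs, 217 with 5 CPM added, 15 with 50 CPM added, 191 with a floor of 20 CPM and 26 with a floor of 100 CPM. The 192 lower genes became 312, 96, 451 and 82 under the last 4 settings. These counts follow from the settings, since low genes pass more easily with less added. Leaving out the 65 fibroblast barcodes or the barcodes found in both libraries, both chosen after seeing the data, gave 78 and 84 higher genes and 139 and 193 lower genes. No paired analysis was possible because there is 1 library per tissue. In lung, Cxcr6 and Ccr10 rest on 40 and 7 cells.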
